A study of Homo sapiens with 18 samples.

Results

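The response of PCL12 cells to CpG was followed in 6 of the 18 libraries of the series, 3 CpG-stimulated and 3 unstimulated, compared in pairs that share a replicate number. PCL12 is an EBV-positive cell line with unmutated IGHV genes, derived from the malignant B cells of chronic lymphocytic leukemia (CLL). Both groups were PCL12 cells, and the stimulated ones received ODN-2006, a class B oligonucleotide with unmethylated CpG motifs, at 2.5 μg·mL−1 for 4 h, and the controls received none. MEC2, an EBV-positive CLL line with mutated IGHV genes, and HG3, an EBV-positive line with unmutated IGHV genes, each with 3 CpG-stimulated and 3 unstimulated libraries, serve here for comparison. Tested were genes whose mean over the 6 PCL12 libraries reached 1 CPM, the count scaled to a library of 1000000 counts, which left 13783 of the 56609 gene symbols in the deposited table. A cell line is a model of 1 tumor, and the labels do not say whether the replicates came from separate cultures. The P values thus describe the spread between these pairs, estimated in part across genes, and this spread may be technical.

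TLR9 is an endosomal receptor that UNC93B1 escorts from the endoplasmic reticulum and that binds DNA with unmethylated CpG. It signals through the adaptor MYD88, the IRAK kinases and TRAF6 to the IKK complex and to MAP kinases, and the NF-κB dimers set free then induce cytokines, survival genes and their own inhibitors. IκBζ, the product of NFKBIZ, is an atypical nuclear member of the inhibitor family that acts as a co-regulator of secondary response genes such as IL6. In B cells, TLR9 ligation is known to raise costimulatory molecules and to favor proliferation and survival.

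CpG upregulated 13 genes in PCL12 and downregulated 2 at an adjusted p under 0.05 in the paired edgeR fit, which is 0.0943% and 0.0145% of the genes tested. The upregulated ones were NFKBIZ, the endoribonuclease gene ZC3H12A, the cytokine genes LTA, TNF and CXCL10, the surface genes CXCR5 and CD83, the transcription factor BATF, the kinases PIM1 and MAP3K8, and UNC119, RAB29 and SWAP70. CD180 and CCR1 were downregulated. All 15 moved the same way in all 3 pairs, as did 21.7% of all tested genes, and in 6 of the 15 the CpG-stimulated libraries did not overlap with the unstimulated ones, against 3.77% of all tested genes. Without the pairing no gene passed and 120 had a nominal P under 0.05, so the calls rest on the comparison within pairs. At a nominal P under 0.05, 426 genes (3.09%) were higher and 295 (2.14%) lower after CpG.

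The sequences upstream of 4 upregulated genes are shown because these genes moved together and hold a match to the κB motif, which the upregulated TNF and ZC3H12A do not in the windows searched. For CXCL10 and CD83 they run over the 250 bases before an annotated start site, and for NFKBIZ and LTA, where exons of other transcripts overlap this window, over 30 bases around the match, all 5′ to 3′ on the gene's strand (RefSeq, GRCh38.p14). Of the latter, the stretch before the first start of NFKBIZ lies in an exon of the neighboring gene NXPE3, and those before the second starts of NFKBIZ and LTA lie in exons of other transcripts of the same genes. In each, capitals mark matches to the κB consensus, the 10-base sequence that NF-κB dimers bind, searched on both strands. NFKBIZ (chr3:101827991-101861022 in GENCODE 44) has 2 annotated starts, with a match 223 bases before the first and another 239 bases before the second. CXCL10 has 2 matches, 177 and 122 bases before its start, and LTA has 1, 103 bases before. In CD83 the capitals cover overlapping matches that begin 76 bases before the start.
NFKBIZ, first start, chr3:101827757-101827786 (+): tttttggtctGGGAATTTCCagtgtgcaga
NFKBIZ, second start, chr3:101849265-101849294 (+): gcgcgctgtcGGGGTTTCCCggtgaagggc
CXCL10, chr4:76023498-76023747 (-): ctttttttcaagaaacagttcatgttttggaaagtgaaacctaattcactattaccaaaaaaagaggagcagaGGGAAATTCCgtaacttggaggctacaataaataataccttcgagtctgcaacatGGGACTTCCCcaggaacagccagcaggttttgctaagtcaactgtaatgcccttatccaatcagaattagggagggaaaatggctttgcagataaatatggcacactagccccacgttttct
CD83, second start, chr6:14117522-14117771 (+): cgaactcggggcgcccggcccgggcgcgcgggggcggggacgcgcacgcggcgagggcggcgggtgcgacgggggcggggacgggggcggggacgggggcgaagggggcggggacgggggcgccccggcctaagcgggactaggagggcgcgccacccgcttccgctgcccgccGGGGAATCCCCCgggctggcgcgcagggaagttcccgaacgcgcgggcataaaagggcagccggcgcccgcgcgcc
LTA, second start, chr6:31572176-31572205 (+): ctaagccctgGGGGCTTCCCcgggccccag

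Over windows that reach from 250 bases before to 50 after a start, 5 of the 13 upregulated genes (38.5%) held a match, MAP3K8 being the other. The share was 8.97% of the 9525 tested genes with a window in the table and 7.09% of all 27305 genes there. A gene counted if any of its windows matched, and the windows at the first starts of CD83 and LTA held no match. By window, 8 of the 19 of the upregulated genes (42.1%) and 5.91% of all 35116 held a match. Neither CD180 nor CCR1 held one. The shares describe these windows and were not tested, and a window without a match says only that these letters are not in it.

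The 6 libraries held 21754658 to 67308932 counts, so that 3 counts, the floor used here for a gene listed at 0, correspond to 0.0446 to 0.138 CPM. These floors cover counting error only. B-cell markers were high in all 6 libraries (7 of 7, summed level 2511 to 3232 CPM), whereas T-cell, myeloid and NK-cell markers summed to at most 2.42, 1.38 and 3.87 CPM and CD3D was at 0 in 5 of 6. Epithelial markers summed to 1.78 to 21.4 CPM, the highest sum being that of unstimulated replicate 2 (5.01 CPM in its stimulated pair), mostly KRT8 and KRT18, and fibroblast markers to 5.34 to 16.5 CPM, nearly all COL1A1. The part of these in the results was not tested. FCER2 (CD23) was at 309.7 to 752 CPM, but CD5, the other defining CLL marker, was at 0.0949 to 1.38 CPM, so that of these 2 markers only FCER2 was clearly present. Libraries of the same replicate number deviated together from the group means (r = 0.649, 0.543 and 0.567 for replicates 1, 2 and 3), and the other combinations gave r from -0.515 to -0.0105. Deviations within a group cancel out, so positive r within pairs push the other r down, and the negative values are not separate evidence.

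Replicates 2 and 3 of PCL12 hold transcripts of MEC2. For 45 genes with at least 20 CPM in MEC2 and at most 10% of that level in replicate 1, selected there for being low, the median level was 2.36% of the MEC2 level in unstimulated and 2.26% in CpG-stimulated replicate 1. It was 31.1% in both libraries of replicate 2, and 31.3% and 29.0% in unstimulated and CpG-stimulated replicate 3. A stricter set of 15 genes, chosen after seeing the data, gave 24.6% to 30.3% in these 4 libraries. The reverse set, 32 genes of PCL12 that MEC2 lacks, stood at 67.7% to 79.5% of its replicate 1 level there. The share was alike within each pair, but MEC2 also responded to CpG, so the replicate 1 ratio, the pair without this signal, as log2 of the stimulated over the unstimulated CPM, is given with every called gene and every list median. Replicate 1 is 1 pair, with no replicate check of its own. In bulk RNA, fewer cells of a type and less RNA per cell cannot be told apart.

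**Figure D1:**
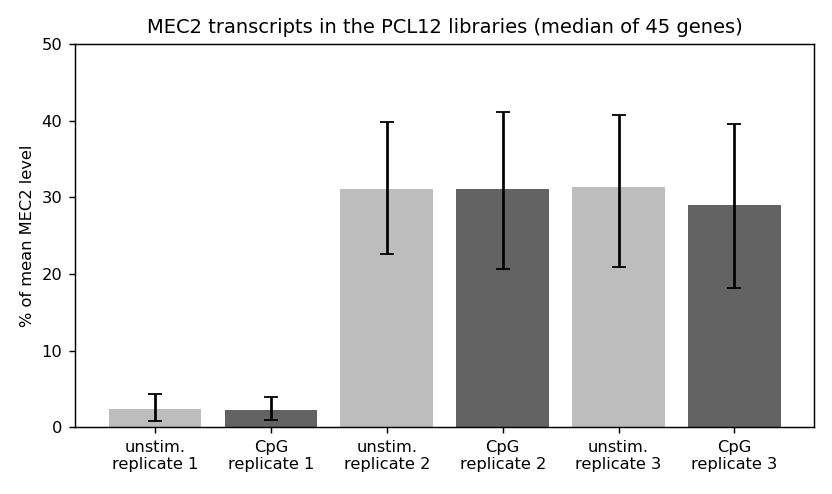
Level of 45 MEC2 genes in each PCL12 library as a percentage of their mean level in MEC2 (bars: median over genes, lines: 25th to 75th percentile). Both libraries of replicate 1 are at 2.26% to 2.36%, and the 4 libraries of replicates 2 and 3 are at 29.0% to 31.3%.

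NFKBIZ was the gene with the smallest P value. Its level was 40.2, 64.5 and 37.9 CPM in unstimulated replicates 1, 2 and 3 and 182, 183 and 104 CPM in the CpG-stimulated ones. The lowest stimulated library was thus above the highest control, and the means were 47.5 ± 14.8 CPM and 156 ± 45.3 CPM (SD, n = 3 each). The paired fit gave a Log2FC of 1.71 (SE 0.16, adjusted p 2.29e-06), and the 3 pairs, in order, gave 2.18, 1.50 and 1.45 on the log2 scale. In MEC2 its Log2FC was 2.18 (SE 0.21), and the MEC2 transcripts, taken as 30.6% of the MEC2 level, correspond to 16.8% of the mean unstimulated and 27.1% of the mean stimulated level in replicates 2 and 3. The 30.6% comes from medians over genes, and the quartiles in these libraries ran from 18.2% to 41.1%. Percentages derived from it, here and below, are therefore approximate.

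ZC3H12A (chr1:37474580-37484377) encodes Regnase-1, also called MCPIP1, an endoribonuclease that degrades inflammatory mRNAs. It stood at 46.1, 65.1 and 35.3 CPM in the unstimulated libraries and at 145, 147 and 104 CPM after CpG, again without overlap. Its Log2FC was 1.46 (SE 0.15, adjusted p 6.49e-06), and its 3 ratios of 1.65, 1.17 and 1.56 spread less than those of NFKBIZ. The MEC2 transcripts correspond to 29.4% of its unstimulated and 40.7% of its stimulated level in replicates 2 and 3. NFKBIZ and ZC3H12A were also the only genes called when all 18 libraries shared an estimate of the spread.

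**Figure D2:**
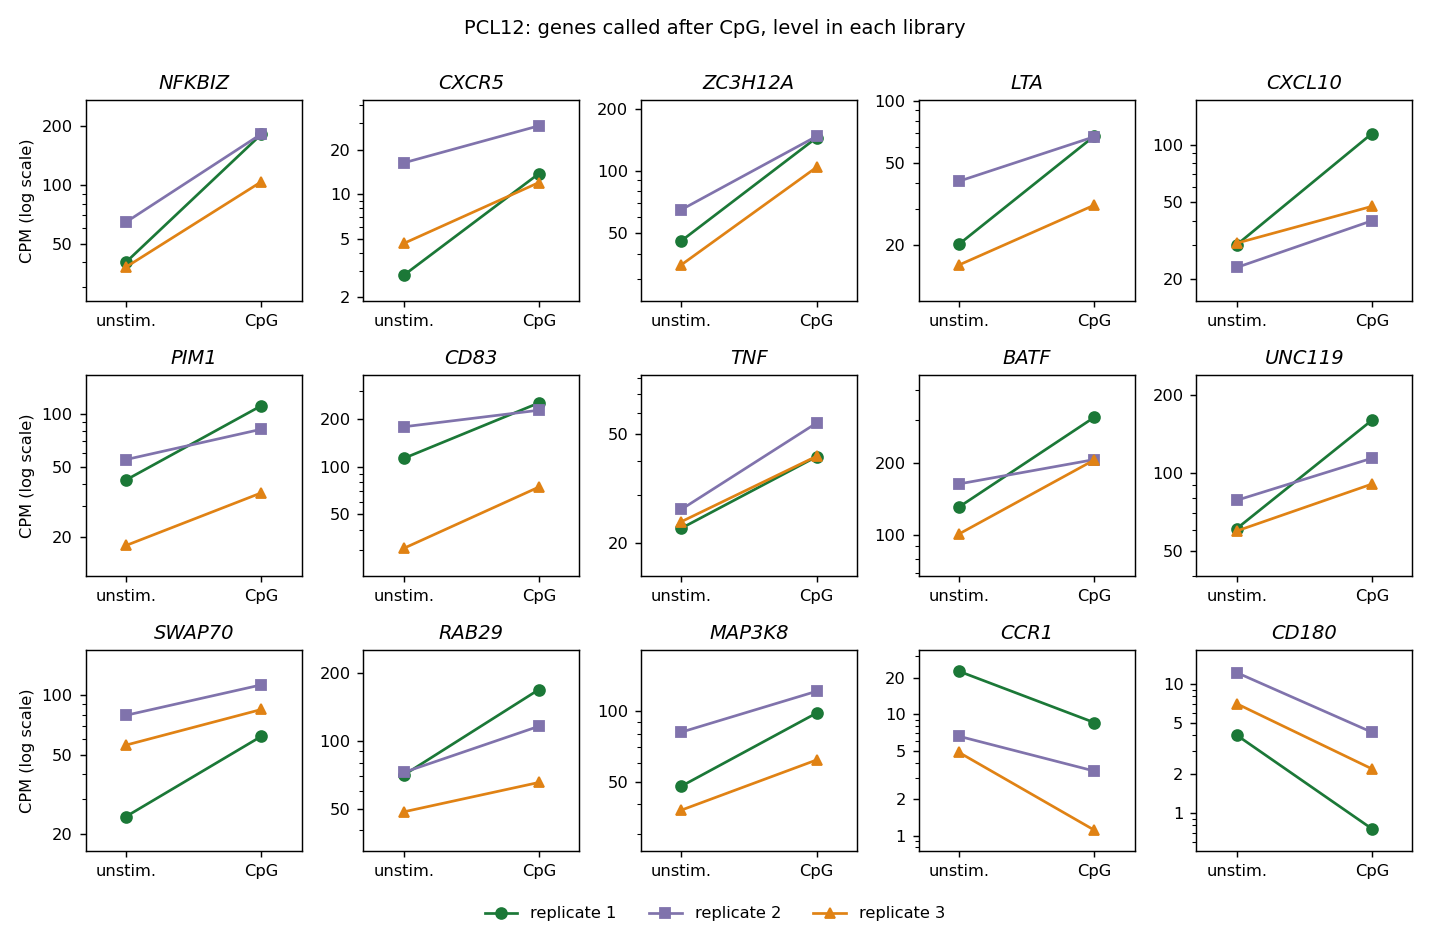
Level of the 15 called genes in the 6 PCL12 libraries (CPM, log axis, a different range for each gene), with a line joining the unstimulated and the CpG-stimulated library of each replicate. All lines of 13 genes go up and all lines of CD180 and CCR1 go down, while the replicates differ in level, most visibly for CXCR5, CD83 and CCR1.

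LTA, TNF and CXCL10 were upregulated among the 19 tested cytokine and chemokine genes, which encode secreted or membrane-bound ligands. LTA, which encodes lymphotoxin alpha, was at 20.3, 40.9 and 16.1 CPM in unstimulated and 67.6, 67.2 and 31.3 CPM in stimulated replicates 1, 2 and 3 (Log2FC 1.14, SE 0.19, adjusted p 0.00929). Replicate 1 had the largest ratio, 1.74, and stimulated replicate 3 was below unstimulated replicate 2. TNF, its neighbor on chromosome 6 (chr6:31572054-31574324 for LTA and chr6:31575565-31578336 for TNF), was at 22.7, 26.6 and 24.0 CPM before and 41.4, 55.0 and 41.6 CPM after CpG. Its groups did not overlap and the controls were tightly spaced, at 24.4 ± 1.99 CPM (SD, n = 3). The Log2FC of TNF was 0.90 (SE 0.16, adjusted p 0.0196) and its replicate 1 ratio 0.87. In replicates 2 and 3 the MEC2 signal corresponds to 81.7% of the unstimulated level of TNF and 64.8% of that of LTA. With CD180 these are the 3 of the 15 genes above 50% before CpG. Of the stimulated level it corresponds to 77.9% for TNF and 62.5% for LTA, and PIM1, at 61.2%, is above 50% there too. The part of the MEC2 signal in the results for LTA and TNF was not tested.

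CXCL10, a chemokine that attracts CXCR3-positive T cells, is scarcely present in MEC2 (1.18 CPM unstimulated and 1.95 CPM after CpG). In PCL12 it was at 30.1, 23.0 and 30.7 CPM in the controls and 114, 40.2 and 47.7 CPM after CpG. Every stimulated library was above every control, but replicate 1 reached well above the others and its ratio of 1.92 compares with 0.81 and 0.64 in replicates 2 and 3. The Log2FC of 1.12 (SE 0.21) was just inside the threshold, with an adjusted p of 0.0497. Of the other cytokine genes, 5 had a positive Log2FC at a nominal P under 0.05, so that 8 of the 19 did (all tested genes: 3.09%), and none a negative one. The median Log2FC of the list was 0.27 (median replicate 1 ratio 0.16), that of all tested genes 0.00.

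IL6, IL10, IL1B and IL12B of the same list were below the 1 CPM limit. IL6 had 22, 1 and 3 counts in stimulated replicates 1, 2 and 3 and 0 in each control, a mean of 0.151 CPM that is at least 1.58-fold above the floor of 3 counts per control library (at least 3.38-fold in replicate 1). The signal thus came mostly from 1 library. TNFAIP6, which encodes a hyaluronan-binding protein induced by TNF, was steadier, with 41, 19 and 16 counts against 0 in each control. It was at least 6.68-fold higher after CpG (at least 6.30-fold in replicate 1), with an edgeR adjusted p of 0.0512 when no filter on the level was set. PLXDC1 had 27, 1 and 13 counts against 0, at least 2.78-fold (at least 4.15-fold in replicate 1). The noncoding AL139011.1 had 48, 23 and 30 counts against 16, 9 and 11, AC106881.1 10, 11 and 4 against 3, 0 and 0, and AC090220.1 14, 4 and 4 against 0, 1 and 0. The adjusted p of PLXDC1, IL6 and these 3 genes was 1.00 without the filter.

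Among 24 tested surface genes of B-cell activation and migration, CXCR5 and CD83 were upregulated. CXCR5, the receptor for CXCL13 that guides B cells into follicles, was at 2.82, 16.3 and 4.63 CPM in the unstimulated libraries and 13.7, 28.9 and 12.0 CPM in the stimulated ones (Log2FC 1.46, SE 0.24, adjusted p 0.00929). Unstimulated replicate 2 was above stimulated replicates 1 and 3, so the groups overlapped although each pair went up, by 2.28, 0.83 and 1.37 on the log2 scale. The MEC2 transcripts correspond to 32.3% of the unstimulated and 49.2% of the stimulated CXCR5 level in replicates 2 and 3. CD83, an activation marker of the immunoglobulin superfamily, was at 112, 178 and 30.6 CPM before and 251, 226 and 74.3 CPM after CpG (Log2FC 0.93, SE 0.16, adjusted p 0.0148, replicate 1 ratio 1.16). Replicate 3 was the lowest in both groups.

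In this list 9 members had a positive and 3 a negative Log2FC at a nominal P under 0.05, and the median was 0.12 (median replicate 1 ratio 0.22). Chosen after their values were seen, the costimulatory receptor CD40 (Log2FC 0.60, SE 0.14, adjusted p 0.0984, replicate 1 ratio 0.75) and the hyaluronan receptor CD44 (Log2FC 0.67, SE 0.15, adjusted p 0.0968, replicate 1 ratio 1.17) came next. The B7 ligand CD80 had a Log2FC of 0.58 (replicate 1 ratio 0.98) and the chemokine receptor CCR7 of 0.41 (replicate 1 ratio 0.53). Negative values at a nominal P under 0.05 belonged to TNFRSF13C, the BAFF receptor, at -0.49 (replicate 1 ratio -0.70), to CXCR4 at -0.45 (replicate 1 ratio -0.63) and to CD38 at -0.39 (replicate 1 ratio -0.79). In pair 2 CD38 did not fall once scaled to library size (1018 of 21754658 counts after CpG, 1144 of 25339196 before).

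CD180 and CCR1 were the downregulated genes. CD180 encodes RP105, a TLR-like surface receptor of B cells, and fell from 4.01, 12.3 and 7.03 CPM to 0.753, 4.23 and 2.20 CPM in replicates 1, 2 and 3 (Log2FC -1.86, SE 0.30, adjusted p 0.00929). Every pair fell, by log2 ratios of -2.41, -1.54 and -1.68, but stimulated replicate 2 was above unstimulated replicate 1. The MEC2 signal corresponds to 66.5% of its unstimulated level in replicates 2 and 3, and in replicate 1 it was at 0.753 CPM after CpG. CCR1, a receptor for CCL3 and CCL5, fell from 22.6, 6.59 and 4.84 CPM to 8.54, 3.41 and 1.11 CPM (Log2FC -1.47, SE 0.27, adjusted p 0.0196, replicate 1 ratio -1.40). Its control level in replicate 1 stood well above those of replicates 2 and 3.

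BATF, a basic leucine zipper factor that pairs with JUN proteins, was the upregulated member of the 19 immediate early and AP-1 genes tested. It was at 131, 163 and 101 CPM in the controls and at 309, 206 and 205 CPM after CpG, and the groups did not overlap (Log2FC 0.86, SE 0.16, adjusted p 0.0188, replicate 1 ratio 1.23). Replicate 2 changed least, with a ratio of 0.34. The rest of the list went both ways, with a median of 0.00 and a median replicate 1 ratio of -0.39. In all, 3 members had a positive and 1 a negative Log2FC at a nominal P under 0.05. FOS had a replicate 1 ratio of -2.40 and EGR3 of -3.37, but neither passed (Log2FC -0.83 and -1.19, both adjusted p 1.00), and MYC was at 0.10 (replicate 1 ratio 0.04).

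The kinase genes PIM1 and MAP3K8 were upregulated. PIM1, a serine/threonine kinase of survival and growth that STAT5 and NF-κB can induce, was at 42.1, 55.0 and 17.8 CPM before and 111, 81.8 and 35.5 CPM after CpG (Log2FC 0.99, SE 0.17, adjusted p 0.00929, replicate 1 ratio 1.40). Replicate 3 was low in both groups, so that its stimulated library was below the controls of replicates 1 and 2. The MEC2 transcripts correspond to 37.2% of the unstimulated and 61.2% of the stimulated PIM1 level in replicates 2 and 3. Their part in the result was not tested. Of the 10 STAT feedback and PIM genes, 3 had a positive Log2FC at a nominal P under 0.05 and the median was 0.11 (median replicate 1 ratio 0.21). MAP3K8 (TPL2) is the kinase that links NF-κB1 p105 to MEK and ERK. It was at 47.9, 81.3 and 37.8 CPM before and 97.9, 121 and 61.9 CPM after CpG (Log2FC 0.77, SE 0.15, adjusted p 0.0310, replicate 1 ratio 1.03). Among 17 ERK feedback genes and targets none was called. Cyclin D2 (CCND2) was the only member with a nominal P under 0.05 (Log2FC 0.40, SE 0.14, adjusted p 0.579, replicate 1 ratio 0.79). DUSP6 was at 0.69 (replicate 1 ratio -0.63), near the 1 CPM limit, with 50, 12 and 30 counts in the controls and 73, 19 and 94 after CpG. The list median was 0.02 (median replicate 1 ratio -0.28).

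The 3 remaining upregulated genes were on none of the lists. UNC119, which encodes a chaperone of lipid-modified signaling proteins, was at 60.8, 78.3 and 59.6 CPM in the controls and 160.1, 114 and 90.6 CPM after CpG without overlap (Log2FC 0.85, SE 0.16, adjusted p 0.0310, replicate 1 ratio 1.40). RAB29, a small GTPase of Golgi and lysosomal traffic, went from 70.4, 72.4 and 48.4 CPM to 169, 116 and 65.3 CPM (Log2FC 0.79, SE 0.16, adjusted p 0.0473, replicate 1 ratio 1.26). SWAP70, a Rac-binding protein of activated B cells, went from 24.5, 79.3 and 56.1 CPM to 62.1, 113 and 84.8 CPM (Log2FC 0.81, SE 0.16, adjusted p 0.0497, replicate 1 ratio 1.34). In SWAP70 both libraries of replicate 1 were below those of replicates 2 and 3 in the same group, where MEC2 transcripts correspond to 48.7% of the unstimulated level.

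Replicate 1 gave the largest ratio in 11 of the 13 upregulated genes, the exceptions being TNF and CD83, and the largest fall in CD180 but not in CCR1. The ratios of all genes also spread most in replicate 1 (SD 0.590, against 0.466 in replicate 2 and 0.413 in replicate 3). The median ratio of the 13 was 1.40 in replicate 1, 0.68 in replicate 2 and 0.96 in replicate 3. Across the 13711 genes with a ratio in every pair, which are not independent, the ratios of pairs 1 and 2 had a Pearson r of 0.175. Pair 3 gave r = -0.111 with pair 1 and -0.104 with pair 2. Left out, pair 3 raised the calls to 320 up and 118 down, but only 164 of these 438 genes (37.4%) had the same sign in the omitted pair. Without pair 2, 21 of 22 called genes kept their sign in it, and without pair 1, 6 of 10. NFKBIZ, ZC3H12A, CXCR5 and CD180 were called whichever pair was left out. The other 11 lost the call without pair 1, while RAB29, TNF and MAP3K8 lost it without pair 2 and CD83 and BATF without pair 3. With library totals in place of TMM factors, MAP3K8, UNC119, RAB29, CXCL10 and SWAP70 were no longer called, and SWAP70 was also lost with limma-voom.

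**Figure D3:**
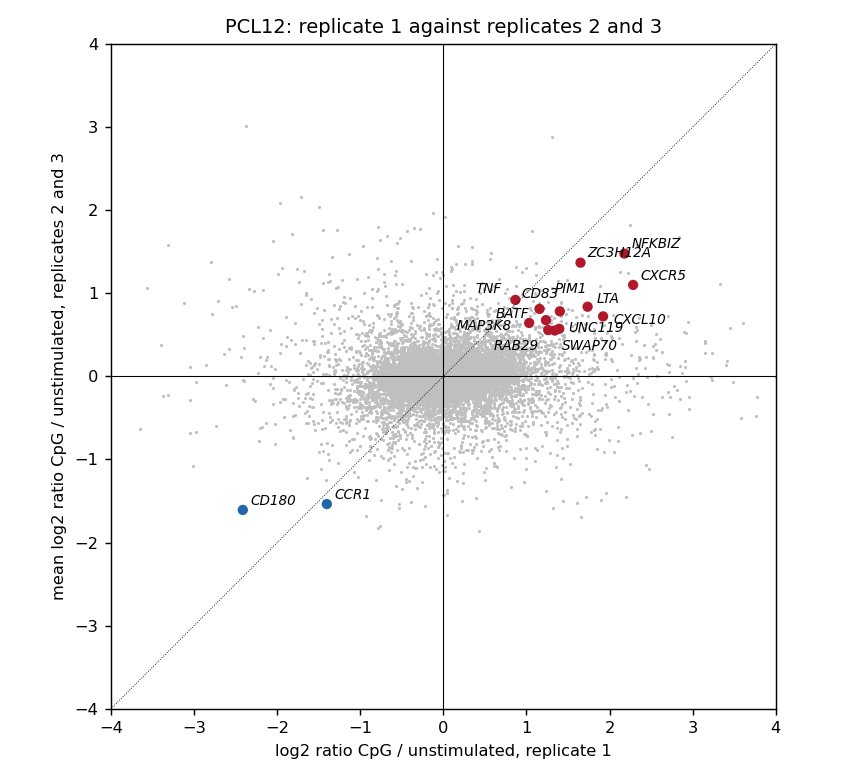
Log2 of the stimulated over the unstimulated CPM of each tested gene in replicate 1 (x axis) and its mean in replicates 2 and 3 (y axis), with the 13 upregulated genes in red, the 2 downregulated ones in blue and a dotted line of equal values; 11 genes lie outside the range. The called genes have the same sign on both axes, and 11 of the 13 upregulated ones have their largest ratio in replicate 1. The ratios of all genes also spread most in replicate 1 (SD 0.590, against 0.466 and 0.413 in replicates 2 and 3).

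By the definition of the study, a nominal P under 0.01 and |Log2FC| of at least 1, there were 15 upregulated (0.109%) and 9 downregulated DEGs (0.0653%). NFKBIZ, ZC3H12A, LTA, CXCR5, CXCL10, CD180 and CCR1 were among them, and 14 of the 17 others had means under 10 CPM in both groups. A further 19 genes, 17 of them higher and all with the same sign in all pairs, had an adjusted p between 0.05 and 0.10.

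No gene of the receptor pathway was called. TLR9 was under the 1 CPM limit, with 10, 0 and 8 counts in stimulated replicates 1, 2 and 3 and 0, 0 and 2 in the controls. Of 21 tested genes of the pathway, TRAF3, an adaptor that restrains noncanonical NF-κB, was the only member with a nominal P under 0.05 (Log2FC 0.46, SE 0.13, adjusted p 0.338, replicate 1 ratio 0.68). The adaptor MYD88 was at 77.4 CPM in unstimulated and 79.3 CPM in stimulated cells on average (Log2FC 0.04, replicate 1 ratio -0.09), and UNC93B1 had a Log2FC of -0.23 (replicate 1 ratio -0.52). The median of the list was 0.05 (median replicate 1 ratio 0.02).

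Of 14 inhibitors and feedback genes of NF-κB, NFKBIZ was called and 6, NFKBIZ included, had a positive Log2FC at a nominal P under 0.05. The atypical inhibitors NFKBID and BCL3 were at 0.54 (replicate 1 ratio 0.65) and 0.49 (replicate 1 ratio 0.67), the classical ones NFKBIE and NFKBIA at 0.51 (replicate 1 ratio 0.55) and 0.38 (replicate 1 ratio 0.17), and the ubiquitin-editing enzyme TNFAIP3 (A20) at 0.45 (replicate 1 ratio 0.62), none with an adjusted p under 0.05. The median of this list was 0.31 (median replicate 1 ratio 0.25) and that of the 5 subunits 0.30 (0.47 in replicate 1). RELB (Log2FC 0.59, SE 0.15, adjusted p 0.178, replicate 1 ratio 0.59) and NFKB2 (Log2FC 0.53, SE 0.14, adjusted p 0.232, replicate 1 ratio 0.70), the noncanonical pair, had a nominal P under 0.05, while RELA was at -0.03 (replicate 1 ratio -0.14). In replicate 2 the ratios were 0.09 for NFKB2 and 0.01 for NFKBIE.

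Of 9 genes that regulate mRNA decay, 4 had a positive Log2FC at a nominal P under 0.05, ZC3H12A included, and 1 a negative one. The related ZC3H12C was at 0.44 (replicate 1 ratio 0.09) and RC3H1 (roquin-1) at 0.47 (replicate 1 ratio 1.17), whereas ZFP36 (tristetraprolin), which promotes the decay of AU-rich mRNAs, was at -0.41 (replicate 1 ratio -0.95), with a ratio of 0.07 in replicate 2. In pair 3 RC3H1 was lower after CpG, also when scaled to library size (2045 counts against 2860). None of 18 survival and death genes was called, but 7 had a positive Log2FC at a nominal P under 0.05 and none a negative one. BCL2L1, which encodes the anti-apoptotic BCL-XL, missed the threshold (Log2FC 0.71, SE 0.15, adjusted p 0.0532, replicate 1 ratio 0.88). The BH3-only gene PMAIP1 (NOXA) followed (Log2FC 0.57, SE 0.14, adjusted p 0.154, replicate 1 ratio 0.80), and the anti-apoptotic BCL2A1 was next (Log2FC 0.53, SE 0.14, adjusted p 0.251, replicate 1 ratio 0.79). Of 14 factors of B-cell identity, 5 had a positive Log2FC at a nominal P under 0.05, among them POU2F2 (OCT2) at 0.49 (replicate 1 ratio 0.83), SPIB at 0.47 (replicate 1 ratio 0.54) and FOXP1 at 0.96 (replicate 1 ratio 0.15). The coactivator POU2AF1 (OBF-1) had a negative one at -0.35 (replicate 1 ratio -0.72), and the list median was 0.10 (median replicate 1 ratio 0.19). For FOXP1, whose Log2FC in MEC2 was 1.86 (SE 0.50), the MEC2 transcripts correspond to 53.6% of the unstimulated and 80.2% of the stimulated level in replicates 2 and 3, and their part in its value was not tested.

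Genes of B-cell receptor signaling had a median of -0.14 (median replicate 1 ratio -0.36), and none of 16 was called. At a nominal P under 0.05, 3 members had a negative Log2FC, among them the phosphatase PTPN6 (Log2FC -0.39, SE 0.15, adjusted p 0.762, replicate 1 ratio -0.90), and 1, the kinase subunit PIK3CD, a positive one (Log2FC 0.35, SE 0.13, adjusted p 0.681, replicate 1 ratio 0.43). In pair 3 the ratio of PTPN6 was 0.09. None of 25 interferon-stimulated genes was called and none had a positive Log2FC at a nominal P under 0.05, and STAT2 and OAS1 had a negative one (Log2FC -0.44, SE 0.14, adjusted p 0.478, replicate 1 ratio -0.64 for STAT2). The list median was -0.06 (median replicate 1 ratio -0.14).

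**Figure D4:**
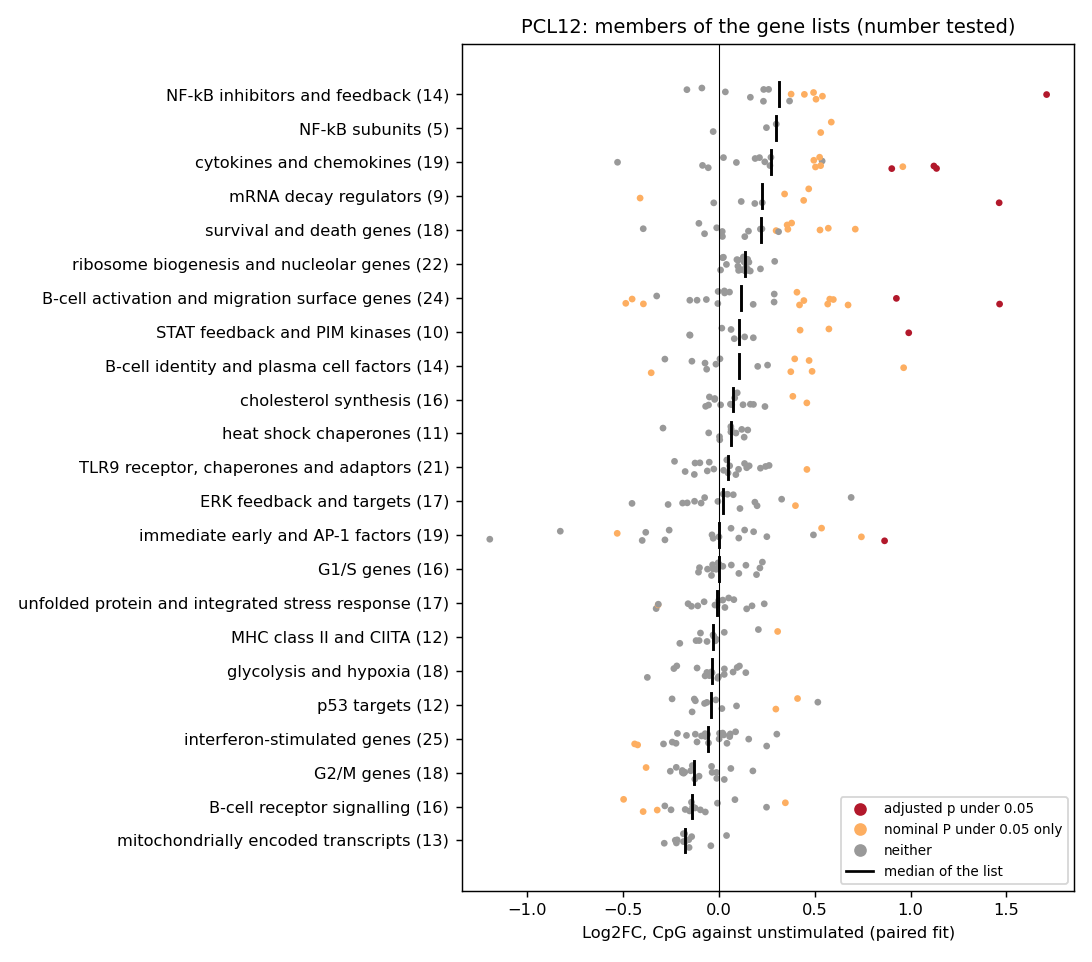
Log2FC of each tested member (points) of 23 gene lists, with the number of members tested in parentheses and the list median as a black bar. The 9 red points are NFKBIZ, ZC3H12A, LTA, CXCL10, TNF, BATF, CXCR5, CD83 and PIM1, and list medians run from -0.18 to 0.31.

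The test of a different CpG effect in PCL12 and MEC2, or in PCL12 and HG3, called no gene (0% of 13783 each) in the paired edgeR fit of all 18 libraries, nor with limma-voom. A nominal P under 0.05 was found for 100 genes between PCL12 and MEC2 (0.726%) and for 289 between PCL12 and HG3 (2.10%), both under the 5% that this threshold allows without any difference. The comparison with MEC2 is limited by the MEC2 transcripts in replicates 2 and 3. For ZC3H12A the Log2FC was 1.75 (SE 0.18) in MEC2 and 0.61 (SE 0.18) in HG3, for NFKBIZ 0.71 (SE 0.20) in HG3, for PIM1 1.32 (SE 0.20) in MEC2 and 0.21 (SE 0.19) in HG3, and for BATF 1.00 (SE 0.25) and -0.13 (SE 0.25). The Log2FC of TNF was 0.90 in PCL12, 0.82 (SE 0.19) in MEC2 and 0.77 (SE 0.19) in HG3. The nominal P of the difference from HG3 was smallest for NFKBIZ (0.00380), ZC3H12A (0.00553) and BATF (0.0147) among the 15 genes, and all adjusted p were 1.00. None of the 15 had a nominal P under 0.05 for a difference from MEC2.

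**Figure D5:**
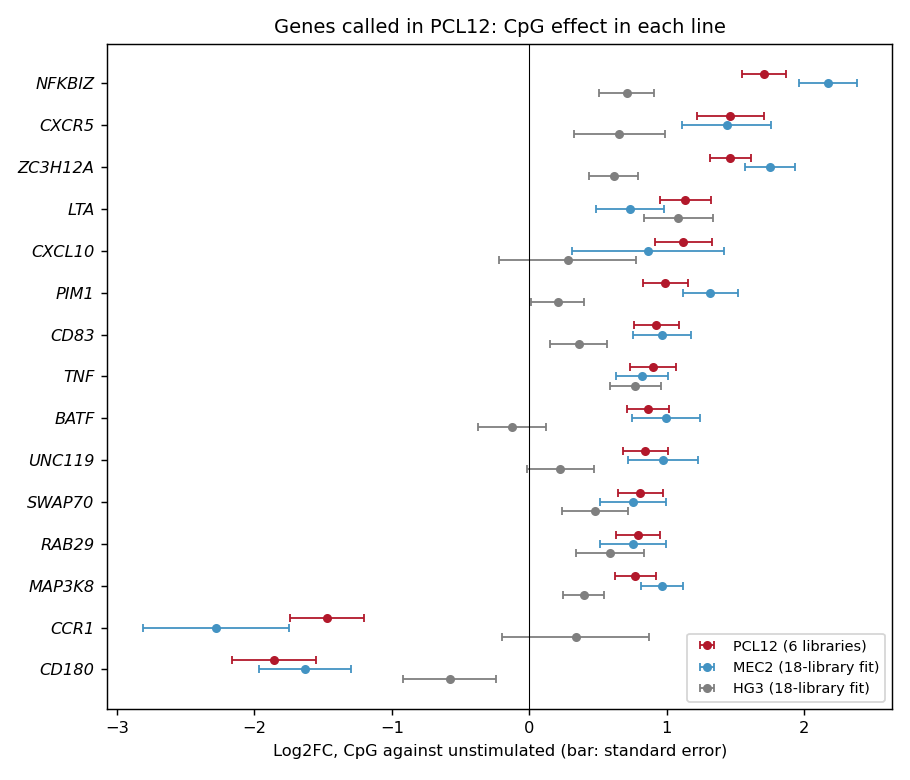
Log2FC of CpG-stimulated against unstimulated cells (points, with standard errors) for the 15 genes called in PCL12, in PCL12 (red, fit of its 6 libraries) and in MEC2 (blue) and HG3 (gray), both from the fit of 18 libraries. The genes were selected in PCL12, and NFKBIZ stands at 1.71 in PCL12, 2.18 in MEC2 and 0.71 in HG3.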

How the data were processed

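RNA of CpG-stimulated and unstimulated PCL12, MEC2 and HG3 cells was sequenced as single reads of 100 nt. The authors trimmed the reads with Trimmomatic, aligned them to hg38 with STAR and deposited raw counts per gene symbol from featureCounts, according to the submitters' processing notes, which also list FastQC and MultiQC. The annotation, tool versions and treatment of duplicate reads are not given in the sources used here, and the methods name a stranded reverse protocol. Reads that are PCR copies would be counted separately, so that counts state the precision too favorably.

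Deposited counts of the 6 PCL12 libraries were fitted with edgeR 4.0.16 in R 4.3.3 (TMM, robust quasi-likelihood F test, replicate number as a block, 2 residual degrees of freedom), for genes reaching a mean of 1 CPM from library totals. The fit moves the spread of each gene toward that shared across genes, which gave a median of 23.2 total degrees of freedom. The P values thus rest largely on the shared spread. P values were adjusted by Benjamini-Hochberg over all 13783 genes, and a gene was called at an adjusted p under 0.05. Printed CPM of tested genes use TMM-scaled library sizes, and those of markers, of genes under the limit and of MEC2 use library totals. Log2 ratios of pairs are ratios of CPM. The series description pairs the samples by replicate number, and the correlations within pairs are given with the libraries. No 2 replicates agreed within sampling noise. With 3 pairs an exact test cannot go below 0.25. Line differences were contrasts of CpG effects in a fit of all 18 libraries with the block.

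Named genes were the called ones, in each gene list the called members or otherwise up to 3 with the smallest P, the genes the study names from the sequencing that involve PCL12, TLR9, UNC93B1 and MYD88, and those with the smallest P for a line difference. All others are marked as chosen after their values were seen or are further list members given as values. The members and lists were chosen with earlier results of these data known, and no test was run over a list. Alternatives were limma-voom (limma 3.58.1), DESeq2 1.42.0, other scalings, filters and libraries, no block, and each pair left out. Positions are those of GENCODE 44 on GRCh38, and all 15 called genes matched a promoter entry. The values of 1 gene that the naming rule takes in are not reported here.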

Additional observations from a re-analysis of the deposited data

How the results depend on the processing

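The 15 called genes had the same direction in all 11 alternatives, and all 15 had a nominal P under 0.05 in each of these except in the fit without the block, where 10 did. Without the replicate block, edgeR called 0 genes up and 0 down (120 at a nominal P under 0.05), gave 6 DEGs up and 0 down and called 0 list members. The block is the design of the series, and the residual spread then includes the differences between pairs. With all 18 libraries in the fit there were 2 genes called up and 0 down, 7 DEGs up and 5 down, and 2 list members called, and 2 of the 15 genes were kept. DESeq2 with the block called 40 up and 6 down, 15 of them list members, and kept all 15. limma-voom called 4 genes down, found 15 DEGs down and kept 14 of the 15, losing SWAP70. RLE scaling also kept 14, filterByExpr 13, and library totals in place of TMM factors kept 10 and called 8 up, without RAB29, CXCL10, MAP3K8, SWAP70 and UNC119. Without a filter beyond 10 counts, which adds many low genes, there were 57 called up and 12 down, 35 DEGs up and 24 down, and 17 list members up. Leaving out a pair gave 6 to 320 genes called up, 4 to 118 down, 34 to 67 DEGs up, 14 to 26 DEGs down, and 4 to 33 list members up and 0 to 11 down. The high values came without replicate 3, where 13 of the 15 were kept, the low ones without replicate 1, where 4 were. The difference from HG3 called 1 gene without the block, and the difference from MEC2 called 0 in all settings. Small changes of other named genes turned around when a pair was left out, with a range of -0.11 to 0.29 for HSPE1, -0.058 to 0.20 for TBP, -0.021 to 0.098 for MYD88, -0.033 to 0.16 for ACTB, -0.61 to 0.12 for MT-ND4L, -0.49 to 0.12 for MT-CO1 and -0.66 to 0.22 for MT-ND1. Unless the construction of a setting shows it, the cause was not tested. Depth limited genes under about 1 CPM, where 3 counts correspond to up to 0.138 CPM.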

Other observations

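No list of metabolic, stress or proliferation genes had a called member. All 22 ribosome biogenesis and nucleolar genes had a positive Log2FC, from 0.01 to 0.29 with a median of 0.13 (median replicate 1 ratio 0.23), but none had a nominal P under 0.05 and only 17 were positive without replicate 1. Of 18 G2/M genes 3 were positive, the median was -0.13 (median replicate 1 ratio -0.19), and the mitotic kinesin gene KIF20A was the only one with a nominal P under 0.05 (Log2FC -0.38, SE 0.16, adjusted p 0.836, replicate 1 ratio -0.62). The 16 G1/S genes had a median of 0.00 (median replicate 1 ratio -0.04) and none with a nominal P under 0.05. Mitochondrially encoded transcripts had a median of -0.18 over 13 genes (median replicate 1 ratio -0.16). This median was -0.67 without replicate 2 and turned to 0.33 without replicate 3, and their share of the counts ran from 2.82% to 8.20% over the 6 libraries.

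Of 16 cholesterol synthesis genes, 2 had a positive Log2FC at a nominal P under 0.05, INSIG1, which retains SREBP in the endoplasmic reticulum (Log2FC 0.46, SE 0.13, adjusted p 0.338, replicate 1 ratio 0.73), and MSMO1 (Log2FC 0.39, SE 0.16, adjusted p 0.803, replicate 1 ratio 0.56), and the list median was 0.08 (median replicate 1 ratio 0.08). Among 12 genes of MHC class II, the transactivator CIITA alone had a nominal P under 0.05 (Log2FC 0.31, SE 0.13, adjusted p 0.836, replicate 1 ratio 0.46), and the median was -0.03 (median replicate 1 ratio -0.26). The p53 targets ZMAT3 (0.41, replicate 1 ratio 0.69) and AEN (0.30, replicate 1 ratio 0.39) had a positive Log2FC and the stress gene DDIT4 (-0.32, replicate 1 ratio -0.62) a negative one at a nominal P under 0.05. In pair 3 ZMAT3 was lower after CpG, also when scaled to library size (1061 counts against 1390). The list median was -0.04 (median replicate 1 ratio -0.09) over 12 p53 targets and -0.01 (median replicate 1 ratio -0.29) over 17 stress response genes. The 11 heat shock genes had a median of 0.06 (median replicate 1 ratio 0.08) and the 18 glycolysis genes of -0.04 (median replicate 1 ratio -0.20), with no nominal P under 0.05 in either. The reference genes ACTB (0.06, replicate 1 ratio -0.17) and TBP (0.06, replicate 1 ratio 0.09) turned around when replicate 3 or replicate 2 was left out.

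Outside the lists, chosen after their values were seen, TRIB2, a pseudokinase gene, had a Log2FC of -0.74 (replicate 1 ratio -1.14) with an adjusted p of 0.0532. MARCKS, an actin-binding substrate of protein kinase C, was at 0.63 (replicate 1 ratio 0.77) with an adjusted p of 0.0532. The prostaglandin receptor PTGER4 went from a mean of 1.39 to 4.22 CPM (1.56, replicate 1 ratio 2.22) and the kinase SGK1 from 5.68 to 10.9 CPM (1.03, replicate 1 ratio 1.50), with adjusted p values of 0.203 and 0.136. Lower values after CpG were found for the inhibitory Fc receptor FCGR2B (-0.83, replicate 1 ratio -1.37, adjusted p 0.143), for ID3, an inhibitor of E proteins (-0.92, replicate 1 ratio -1.63, adjusted p 0.178), and for the quiescence factor KLF2 (-1.15, replicate 1 ratio -1.03, adjusted p 0.302). The noncoding RMRP had a Log2FC of -1.64 and ratios of -0.78, -2.77 and -0.87 in replicates 1, 2 and 3, and unstimulated replicate 2 stood at 33.2 CPM beside 1.09 and 0.894 CPM in the other controls.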
